A study of Mus musculus with 6 samples.

Results

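Fc gamma receptors bind the constant part of IgG and tell macrophages that a particle or immune complex carries antibody. The report follows the 4 mouse genes of this family, Fcgr1, Fcgr2b, Fcgr3 and Fcgr4, taken by symbol from the 55536 gene IDs measured, in bulk RNA sequencing of 6 libraries. Transcripts of all 4 receptors were higher with etelcalcetide, between 1.64-fold for Fcgr4 and 4.56-fold for Fcgr3, and the inhibitory receptor Fcgr2b was among them at 1.96-fold. The cells were RAW264.7, an immortalised line of mouse macrophages, which is 1 line grown in culture. In 3 libraries the cells had received RANKL at 50 ng/mL and the calcium-sensing receptor agonist etelcalcetide, a peptide drug, at 4 µM. In the other 3 libraries the cells had received RANKL at 50 ng/mL alone. RANKL is the cytokine that drives macrophage precursors towards osteoclasts, all 6 libraries carry it, and no library without it was analysed here. The series design gives 5 days of culture for every sample, while the sample labels give 5, 6 and 7 days to replicates 1, 2 and 3 of both groups. No label calls the replicates separate cultures, so every p-value reflects only how far these libraries differ, and that spread may be technical. Within a group, the spread also cannot be told apart from a difference between the labelled days.

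Activating and inhibitory Fc gamma receptors are usually found on the same cell. Fcgr1, Fcgr3 and Fcgr4 encode IgG-binding chains that pair with the common gamma chain Fcer1g, whose cytoplasmic tail carries an immunoreceptor tyrosine-based activation motif (ITAM). Once phosphorylated by Src-family kinases, the ITAM recruits the kinase Syk, and phagocytosis and cytokine release follow. Fcgr2b carries an inhibitory motif (ITIM) in its own tail, which recruits the lipid phosphatase SHIP-1, the product of Inpp5d. In osteoclast precursors, Fcer1g and the related adaptor Tyrobp (DAP12) also give the ITAM signal that acts beside RANKL.

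The difference between the classes of receptor is written in their coding sequences. The Fcgr2b stretch below comes from exons 7 and 8 of 8 (GRCm38, minus strand, chr1:170961196-170961198 and chr1:170961056-170961100, GENCODE M21), and its capitals mark the codons of the ITIM, residues 317 to 322 of a 340-residue protein. The Fcer1g stretch comes from exons 4 and 5 of 5 (minus strand, chr1:171230067-171230087 and chr1:171229874-171229927), and its capitals mark the codons of the ITAM, residues 65 to 79 of 86.
Fcgr2b: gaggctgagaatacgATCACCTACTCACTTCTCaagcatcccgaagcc
Fcer1g: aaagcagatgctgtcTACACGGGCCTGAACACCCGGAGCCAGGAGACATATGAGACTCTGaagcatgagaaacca
A search of the longest coding transcripts of Fcgr1, Fcgr3 and Fcgr4 found 0 ITAM matches in each, in proteins of 404, 267 and 249 residues.

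Fcgr2b and Fcgr3 are close copies over part of their coding sequences, which bears on how well their reads can be told apart. Over an ungapped block of 509 coding bases, 491 were identical (96.5%), with a longest identical run of 129 bases. The next lines show 90 bases from exon 3 of Fcgr2b (minus strand, chr1:170968020-170968109) and the matching 90 bases from exon 3 of Fcgr3 (minus strand, chr1:171057731-171057820), with the 3 mismatches in capitals.
Fcgr2b: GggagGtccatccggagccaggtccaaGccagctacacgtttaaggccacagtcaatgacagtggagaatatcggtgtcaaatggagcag
Fcgr3: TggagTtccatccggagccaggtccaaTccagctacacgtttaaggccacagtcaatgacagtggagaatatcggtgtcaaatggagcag
Of all 50-base stretches of annotated Fcgr3 transcripts, 9.58% also occur in Fcgr2b, as do 2.54% of its 100-base stretches and 0% of its 150-base stretches. For Fcgr2b, 6.95%, 4.30% and 1.92% of stretches of these lengths occur in any other gene. Its largest share with a single gene was with Fcgr3 at 50 bases (2.92%). At 100 and 150 bases it was with Cplx2 (2.17% and 1.79%). Fcgr1 and Fcgr4 shared no stretch at any of these lengths. Because neither the read length nor the handling of multiply mapped reads is given in the sources used here, the values of Fcgr2b and Fcgr3 are uncertain to that extent.

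The measured unit is FPKM, fragments per kilobase of exon, relative to the total of gene-assigned reads. The libraries held 13742913 to 16264432 such reads with etelcalcetide and 14530043 to 15877596 with RANKL alone. At that depth the receptors had 95 to 631 reads each per library, which gives a counting error of 3.98% to 10.3%; this covers counting error only. Over all 11120 genes tested with limma, 53% changed at a Benjamini-Hochberg adjusted p under 0.05. They comprised 26% that were higher and 27% that were lower with etelcalcetide. Scaling by library totals alone gave 3558 higher and 2272 lower genes, against 2896 higher and 2997 lower genes with trimmed-mean scaling.

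All 4 of the 4 receptors passed the filter on low values and were called higher, beside 26% of all tested genes. In all 4, the 3 etelcalcetide libraries lay above the 3 RANKL libraries, which was also so for 30.7% of the tested genes. Fold changes below were taken after adding 0.1 to FPKM on the log2 scale, so changes of low genes are understated. In bulk RNA, fewer cells of a type and less RNA per cell cannot be told apart.

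Fcgr3 (ENSMUSG00000059498), the low-affinity activating receptor for immune complexes, showed the largest difference of the 4. It lies on the minus strand at chr1:171051174-171064935. It had 16.1, 17.8 and 19.9 FPKM in etelcalcetide replicates 1, 2 and 3, against 3.59, 3.52 and 3.77 FPKM in RANKL replicates 1, 2 and 3. The lowest etelcalcetide library was far above the highest RANKL library, and neither group had a library standing apart. The log2 fold change was 2.19 with a standard error of 0.086 (limma, 95% interval 2.0 to 2.4, adjusted p = 2.79e-07), and 0.567% of the tested genes rose more.

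Fcgr1 (ENSMUSG00000015947) encodes the high-affinity receptor, which can bind monomeric IgG. It is the only one of the 4 on chromosome 3, at chr3:96282909-96293969 on the minus strand. It had 14.3, 13.9 and 14.99 FPKM in etelcalcetide replicates 1, 2 and 3, against 6.20, 5.60 and 5.50 FPKM in RANKL replicates 1, 2 and 3. The etelcalcetide values were the tightest of the 4 receptors, with a coefficient of variation of 3.69%, and the groups did not overlap. The log2 fold change was 1.23 with a standard error of 0.0711 (limma, 95% interval 1.07 to 1.39, adjusted p = 2.72e-06), which is 2.34-fold.

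Fcgr4 (ENSMUSG00000059089), an activating receptor of intermediate affinity, differed least. It lies on the plus strand at chr1:171018920-171029761. It had 10.6, 12.6 and 14.4 FPKM in etelcalcetide replicates 1, 2 and 3, against 6.94, 6.92 and 7.51 FPKM in RANKL replicates 1, 2 and 3. The etelcalcetide libraries were spread more widely than the RANKL libraries, with coefficients of variation of 15.4% and 4.68%, but the groups stayed apart. The log2 fold change was 0.72 with a standard error of 0.106 (limma, 95% interval 0.48 to 0.96, adjusted p = 0.00057), and 7.44% of the tested genes rose more.

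Fcgr2b (ENSMUSG00000026656), the inhibitory receptor, was the lowest of the 4 in every library. It lies on the minus strand at chr1:170958617-170976547. It had 2.32, 3.08 and 2.61 FPKM in etelcalcetide replicates 1, 2 and 3, against 1.154, 1.24 and 1.32 FPKM in RANKL replicates 1, 2 and 3. Etelcalcetide replicate 2 was the highest, and no etelcalcetide library reached down to the RANKL range. The log2 fold change was 0.97 with a standard error of 0.139 (limma, 95% interval 0.65 to 1.28, adjusted p = 0.000485). Of its exon length, 2.68% overlaps the antisense gene Gm38204, which had 1 read over the etelcalcetide libraries and 2 reads over the RANKL libraries.

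**Figure D1:**
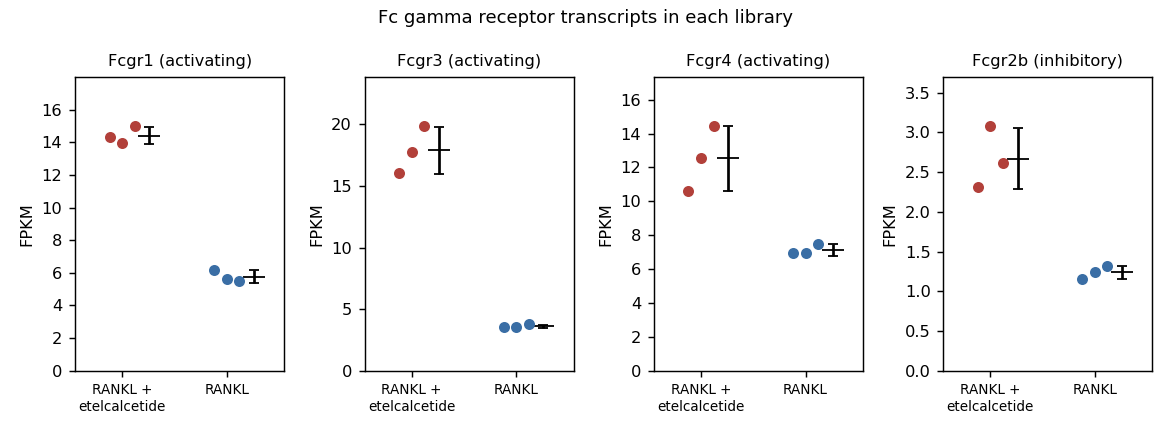
FPKM of each Fc gamma receptor in each library, with 1 panel per gene and its own vertical axis from 0; points are libraries, and the bar and whiskers are the mean and SD of 3 libraries. In every panel the 3 RANKL + etelcalcetide points lie above the 3 RANKL points, with the widest gap for Fcgr3 (17.9 against 3.62 FPKM on average).

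The order of the receptor levels, which FPKM puts on a per-length scale, was not the same in the groups. With etelcalcetide the mean level was highest for Fcgr3 at 17.9 ± 1.91 FPKM, then Fcgr1 at 14.4 ± 0.531, Fcgr4 at 12.5 ± 1.93 and Fcgr2b at 2.67 ± 0.384 FPKM (SD, n = 3). The ranges of the neighbours Fcgr1 and Fcgr4 overlapped, although Fcgr1 was above Fcgr4 in 3 of the 3 libraries, and the ranges of the other neighbours did not overlap. With RANKL alone the mean level was highest for Fcgr4 at 7.12 ± 0.333 FPKM, then Fcgr1 at 5.77 ± 0.38, Fcgr3 at 3.62 ± 0.128 and Fcgr2b at 1.24 ± 0.0825 FPKM, and no neighbours overlapped (SD, n = 3). Fcgr3 was thus first of 4 with etelcalcetide and the third of 4 with RANKL alone.

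As a share of the summed FPKM of the 4 genes, Fcgr3 made up 37.6 ± 0.589% with etelcalcetide and 20.4 ± 0.377% with RANKL alone (SD, n = 3 each). Fcgr4 made up 26.3 ± 1.70% with etelcalcetide and 40.1 ± 1.34% with RANKL alone. Neither share overlapped between the groups (exact permutation p = 0.1 for each, two-sided, the smallest that 3 against 3 allows). Fcgr1 held 30.4 ± 2.28% with etelcalcetide and 32.5 ± 2.14% with RANKL alone, and its ranges overlapped (exact permutation p = 0.3). Fcgr2b held 5.63 ± 0.771% with etelcalcetide and 6.98 ± 0.453% with RANKL alone (exact permutation p = 0.2). The shares add to 100 in each library, so a larger share of one gene lowers the others.

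**Figure D2:**
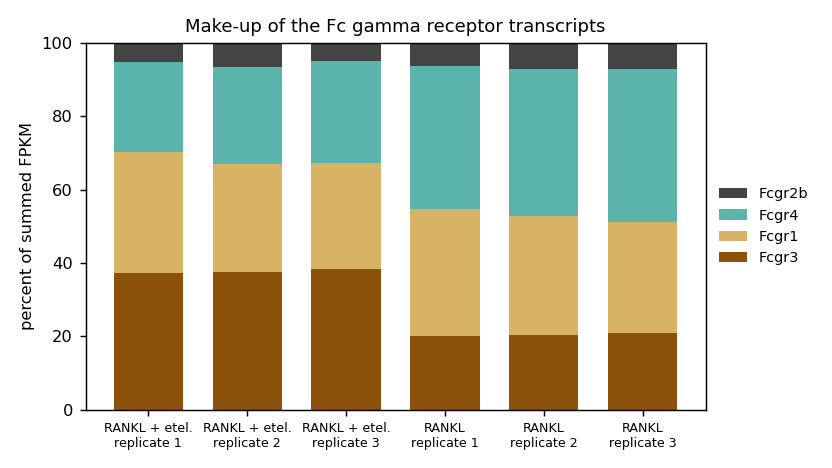
Share of each receptor in the summed FPKM of the 4 Fc gamma receptor genes, in percent, with 1 bar per library. Fcgr3 takes 37.6% on average in the RANKL + etelcalcetide libraries and 20.4% in the RANKL libraries, while the share of Fcgr4 is 26.3% and 40.1%.

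The comparison of activating receptors with Fcgr2b asked whether the balance between the classes differed. The 3 activating receptors summed to 40.9, 44.3 and 49.3 FPKM in etelcalcetide replicates 1, 2 and 3, against 16.7, 16.0 and 16.8 FPKM in RANKL replicates 1, 2 and 3. Divided by Fcgr2b in the same library, this gave 17.7, 14.4 and 18.9 in the etelcalcetide libraries and 14.5, 12.9 and 12.7 in the RANKL libraries. The groups overlapped, since etelcalcetide replicate 2 fell just under RANKL replicate 1. The mean ratio was 17.0 ± 2.32 with etelcalcetide and 13.4 ± 0.970 with RANKL alone (SD, n = 3 each; exact permutation p = 0.2 on the log2 ratio, two-sided). The log2 ratio was 0.34 higher on average with etelcalcetide. Taken by replicate number, which carries the same labelled day in both groups, the ratio was higher with etelcalcetide in 3 of 3 pairs.

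The single receptors moved in different ways relative to Fcgr2b. The ratio of Fcgr3 to Fcgr2b was 6.93, 5.77 and 7.61 in etelcalcetide replicates 1, 2 and 3, against 3.11, 2.84 and 2.85 in RANKL replicates 1, 2 and 3, with no overlap. The ratio of Fcgr4 to Fcgr2b was 4.57, 4.08 and 5.53 in etelcalcetide replicates 1, 2 and 3, against 6.01, 5.58 and 5.69 in RANKL replicates 1, 2 and 3, and was lower with etelcalcetide without overlap. Both had an exact permutation p of 0.1, the smallest possible. The ratio of Fcgr1 to Fcgr2b was 6.17, 4.53 and 5.74 in etelcalcetide replicates 1, 2 and 3, against 5.37, 4.51 and 4.17 in RANKL replicates 1, 2 and 3, and the groups overlapped (exact permutation p = 0.2). Over the 13 sums, ratios and shares compared, the Benjamini-Hochberg adjusted permutation p was 0.163 at the lowest.

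**Figure D3:**
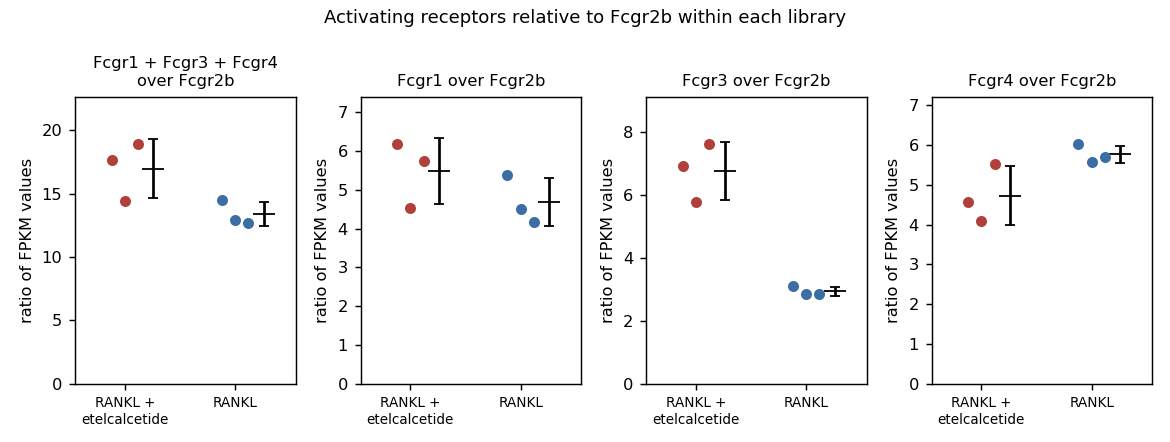
Ratio of FPKM values within each library, for the 3 activating receptors summed and for each alone, over Fcgr2b; vertical axes start at 0, points are libraries, and the bar and whiskers are the mean and SD of 3 libraries. Fcgr3 over Fcgr2b averages 6.77 with RANKL + etelcalcetide and 2.93 with RANKL, Fcgr4 over Fcgr2b averages 4.73 and 5.76, and the other ratios overlap between the groups.

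A limma fit of each gene's log2 value minus that of Fcgr2b put numbers on these differences. The change of Fcgr3 exceeded that of Fcgr2b by 1.223 on the log2 scale (95% interval 0.87 to 1.57, adjusted p = 3.73e-11). Of the 11119 other tested genes, 2.16% were called higher relative to Fcgr2b and 91.2% were called in either direction. The change of Fcgr1 was 0.26 above that of Fcgr2b (95% interval -0.09 to 0.61, adjusted p = 0.149). The change of Fcgr4 was 0.25 below it (difference -0.25, 95% interval -0.60 to 0.10, adjusted p = 0.167). That difference was -0.0028 with a pseudocount of 1 FPKM and -0.15 without etelcalcetide replicate 2, and it passed in neither. Neither of these differences passed, and their intervals leave room for a change of Fcgr1 or Fcgr4 that is unlike that of Fcgr2b. All differences in this fit share the 6 values of Fcgr2b, so its adjusted p-values are too small. With the standard errors of the single-gene fits combined instead, the interval for Fcgr3 was 0.85 to 1.59, that for Fcgr1 was -0.09 to 0.62, and that for Fcgr4 was -0.65 to 0.15.

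The level of Fcgr2b depends on the length used. Its merged exons span 5790 bases over 7 annotated transcripts, whereas its longest coding transcript has 3544 bases. For Fcgr3 these lengths are 1736 and 1347 bases, and for Fcgr1 (2589 bases) and Fcgr4 (1256 bases) they are equal. With the coding transcript lengths the ratio of activating receptors to Fcgr2b was 11.6 ± 1.58 with etelcalcetide and 8.71 ± 0.619 with RANKL alone, and the groups did not overlap (SD, n = 3 each; exact permutation p = 0.1, two-sided, the smallest possible). With Fcgr3 left out of the sum, the log2 ratio differed by -0.041 with etelcalcetide relative to RANKL alone, against 0.34 with it, so the direction of the balance rested on Fcgr3.

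The partner chain of the activating receptors was far more abundant than the receptors and differed little. Fcer1g had 177.9, 180.2 and 174.7 FPKM in etelcalcetide replicates 1, 2 and 3, against 150.6, 149.5 and 154.7 FPKM in RANKL replicates 1, 2 and 3. The groups did not overlap, but the log2 fold change was only 0.15 (limma, adjusted p = 0.0239). This call was lost without etelcalcetide replicate 1, 2 or 3 or RANKL replicate 2 (adjusted p 0.0505 to 0.113), and with the replicate number as a block (adjusted p = 0.0581). Tyrobp, the other ITAM adaptor of osteoclast precursors, had 383 ± 16.3 FPKM with etelcalcetide and 412 ± 35.2 FPKM with RANKL alone (SD, n = 3 each; log2 difference -0.18, limma adjusted p = 0.0501). It passed without RANKL replicate 1, at a log2 difference of -0.23 (adjusted p = 0.0153), and with the replicate number as a block (adjusted p = 0.0394). Hcst, the DAP10 adaptor, did not pass (adjusted p = 0.592).

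Among the other Fc receptors and ITAM chains, 6 of 18 were tested, of which 3 were higher, 1 was lower and 2 did not pass, with a median log2 fold change of 0.01. Over all tested genes 26% were higher and 27% lower, and the median was -0.01. The list median lay between -0.02 and 0.12 with single libraries left out, and 2 were higher without etelcalcetide replicate 1, 2 or 3 or RANKL replicate 2. Fcgrt, the neonatal Fc receptor that recycles IgG, had 6.11, 8.86 and 7.78 FPKM in etelcalcetide replicates 1, 2 and 3, against 3.49, 2.70 and 3.47 FPKM in RANKL replicates 1, 2 and 3 (log2 fold change 1.13, limma adjusted p = 0.000335). Trim21, the cytosolic antibody receptor, was higher by 0.62 on the log2 scale (adjusted p = 0.00354). Fcrl1, an Fc receptor-like protein known mainly from B cells, was lower at 10.4 ± 0.107 FPKM with etelcalcetide and 16.9 ± 1.10 FPKM with RANKL alone (SD, n = 3 each; log2 fold change -0.77). The IgE receptor genes Fcer1a, Ms4a2 and Fcer2a, and Fcrla and Fcrlb next to Fcgr2b, were too low to be tested.

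Of the genes that carry the signal away from the ITAM, 30 of 32 were tested; 16 were higher, 8 were lower and 6 did not pass, with a median log2 fold change of 0.22 (26% higher and 27% lower over all tested genes). Syk, the kinase that docks on the phosphorylated ITAM, had 20.4, 22.3 and 23.1 FPKM in etelcalcetide replicates 1, 2 and 3, against 15.2, 15.03 and 16.7 FPKM in RANKL replicates 1, 2 and 3 (log2 fold change 0.41, limma adjusted p = 0.00111). The Src-family kinases did not share a direction. Fgr was higher at 33.2 ± 2.18 FPKM with etelcalcetide and 11.5 ± 0.890 FPKM with RANKL alone, a log2 fold change of 1.44. Src itself, which osteoclasts need for bone resorption, was lower at 2.17 ± 0.324 FPKM with etelcalcetide and 8.27 ± 1.30 FPKM with RANKL alone, a log2 fold change of -1.95. Pik3cd, a catalytic subunit of PI3-kinase, and Shc1, an adaptor towards Ras, were higher by 0.63 and 0.77 on the log2 scale. The phospholipase Plcg1 (-0.04) and the phosphatase Ptprc, or CD45 (0.09), did not pass.

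The inhibitory side downstream of Fcgr2b was tested in 12 of 13 genes, of which 5 were higher, 2 were lower and 5 did not pass, beside 26% higher and 27% lower over all tested genes, with a median log2 fold change of 0.15. Inpp5d, the SHIP-1 phosphatase that the ITIM printed above recruits, had 33.7, 37.3 and 37.0 FPKM in etelcalcetide replicates 1, 2 and 3, against 27.1, 28.6 and 27.4 FPKM in RANKL replicates 1, 2 and 3 (log2 fold change 0.30, limma adjusted p = 0.00308). Inppl1, or SHIP-2, was higher by 0.32, with 20.3% of its exon length shared with another gene, and Csk, which restrains Src-family kinases, by 0.30. The adaptors Dok2 and Dok3, which dampen receptor signals, were lower, with log2 fold changes of -0.43 and -0.59. Ptpn6, the SHP-1 phosphatase, had 203 ± 3.20 FPKM with etelcalcetide and 187 ± 14.2 FPKM with RANKL alone and did not pass (SD, n = 3 each; log2 difference 0.05, adjusted p = 0.58). Cblb (-0.15) did not pass either.

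Of the genes listed as other ITIM receptors of myeloid cells, 15 of 19 were tested, and 5 were higher, 5 were lower and 5 did not pass, with a median log2 fold change of 0.13. These shares are near the 26% higher and 27% lower over all tested genes. Lair1, among the lower genes, passed the filter on low values only through the RANKL libraries, so it was tested only because it was high there. The motif was searched in Fcgr2b and not in these genes, so the list does not show that each mouse protein, Cd33 and Lilr4b among them, carries an ITIM. Without etelcalcetide replicate 3 there were 3 higher and 5 lower and the median turned to -0.07, and without etelcalcetide replicate 2 there were also 3 higher and 5 lower. Of the higher ones, Cd300lf changed by 1.23 and Pilra by 1.005 on the log2 scale; these 2 were chosen after their values were seen. Clec4a2, an inhibitory C-type lectin of the DCIR group, had 1.12 ± 0.329 FPKM with etelcalcetide and 8.51 ± 0.822 FPKM with RANKL alone (SD, n = 3 each; log2 fold change -2.92). Cd33, a sialic acid-binding lectin, was lower at 5.24 ± 1.02 FPKM with etelcalcetide and 16.4 ± 1.62 FPKM with RANKL alone (log2 fold change -1.72). Clec12a (-0.69) and Cd72 (-0.55, with 41.6% of its exon length in an overlap) were lower too. Pirb (0.15) and Milr1 (-0.02) did not pass. Several of these genes have close copies in the genome, and their values are uncertain where reads could be split.

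The actin and membrane machinery of Fc receptor phagocytosis held 37 tested genes of 40, of which 15 were higher, 8 were lower and 14 did not pass, beside 26% higher and 27% lower over all tested genes. Scaling by library totals alone gave 17 higher and 3 lower. The median log2 fold change was 0.07, and it was 0.01 without etelcalcetide replicate 3 and 0.02 without RANKL replicate 3. Marcksl1, which binds membrane and actin, had 227 ± 3.97 FPKM with etelcalcetide and 61.2 ± 5.86 FPKM with RANKL alone (SD, n = 3 each; log2 fold change 1.81). Its relative Marcks had 455 reads over the etelcalcetide libraries and 2 reads over the RANKL libraries, a depth-adjusted ratio of 229 (95% exact conditional interval 62.9 to 1894, which covers counting error only). Marcks passed the filter on low values only through the etelcalcetide libraries. Dnm2, the dynamin that pinches off membrane, was higher by 0.63. Pip5k1b, which makes the lipid PIP2, was lower at 9.83 ± 0.543 FPKM with etelcalcetide and 28.5 ± 0.747 FPKM with RANKL alone (log2 fold change -1.60). The small GTPase Cdc42 (0.02) and the Arp2/3 subunit Arpc1b (-0.02) did not pass.

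A list of phagocytic receptors that do not need antibody also held the complement fragment receptors C5ar1, C5ar2 and C3ar1, which are chemoattractant receptors. With these included, 12 of 23 genes were tested. Of the tested genes 6 were higher, 2 were lower and 4 did not pass, beside 26% higher and 27% lower over all tested genes. The median log2 fold change was 0.45, and it was 0.18 without etelcalcetide replicate 2 and 0.21 without etelcalcetide replicate 3. Without RANKL replicate 1, 4 were lower. C5ar1, the receptor for the complement fragment C5a, had 34.5, 36.6 and 41.6 FPKM in etelcalcetide replicates 1, 2 and 3, against 9.97, 10.1 and 12.1 FPKM in RANKL replicates 1, 2 and 3 (log2 fold change 1.72, limma adjusted p = 1.62e-06). Olr1, a scavenger receptor for oxidised lipoprotein, was higher by 2.14 on the log2 scale. Olr1 passed the filter on low values only through the etelcalcetide libraries. Itgam, the alpha chain of complement receptor 3, was higher by 0.77, with 68.7% of its exon length in an overlap with another gene. Msr1, a class A scavenger receptor, was lower at 7.52 ± 0.278 FPKM with etelcalcetide and 14.7 ± 1.69 FPKM with RANKL alone (log2 fold change -1.03). Itgax (-0.11) and C5ar2 (0.25) did not pass. Without RANKL replicate 1, Itgax passed at a log2 difference of -0.28 (adjusted p = 0.028).

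The list of cytokine and transcription control of Fc gamma receptor genes, which includes the kinases Jak1 and Jak2, had 24 of 24 genes tested. Of these, 19 were higher, 2 were lower and 3 did not pass, with a median log2 fold change of 0.51 (26% higher and 27% lower over all tested genes). Whether each member acts on the receptor genes in these cells, and in which direction, was not tested. Ifngr1, a chain of the interferon gamma receptor, had 60.0 ± 0.615 FPKM with etelcalcetide and 36.5 ± 0.752 FPKM with RANKL alone (SD, n = 3 each; log2 fold change 0.64). Stat2 and Irf9, partners in the interferon-stimulated complex ISGF3, were higher by 1.08 and 0.90 on the log2 scale. Csf2ra, the GM-CSF receptor alpha chain, was higher by 0.97. Jak1 (0.01) and Csf2rb2 (-0.22) did not pass. Counts and medians of all these lists describe the members beside the whole set of tested genes and are not tests of the lists.

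**Figure D4:**
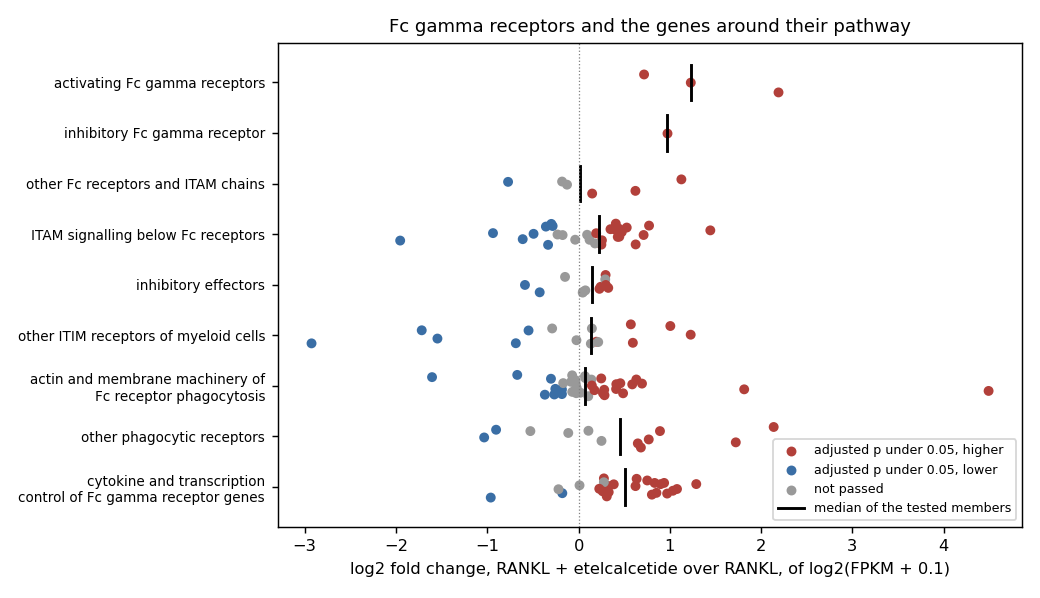
Log2 fold change of each tested gene, RANKL + etelcalcetide over RANKL, on the log2(FPKM + 0.1) scale, by list; red and blue points passed the adjusted p threshold of 0.05 as higher and lower, grey points did not pass, and black bars are medians. The Fc gamma receptors lie at 0.72 to 2.19, while the ITAM signalling genes have a median of 0.22 and the genes listed as other ITIM receptors have points on both sides.

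Fcgr2b, Fcgr4 and Fcgr3 lie in this order within 106 kb of chromosome 1, with Fcer1g beyond them on the same chromosome. Of the 15 protein-coding genes within 200 kb of any of these 3 receptors, 7 were tested. Among them 2 were higher, 1 was lower and 4 did not pass, beside 26% higher and 27% lower over all tested genes. Cfap126, a cilium gene next to Fcgr3, was higher by 0.77 from low values of 0.69, 0.82 and 1.35 FPKM in etelcalcetide replicates 1, 2 and 3, against 0.44, 0.46 and 0.50 FPKM in RANKL replicates 1, 2 and 3 (limma adjusted p = 0.0222). Its call was lost without etelcalcetide replicate 3 or RANKL replicate 1 or 2 (adjusted p 0.0534 to 0.0925). Fcer1g was higher, as given above. Atf6, a stress-response transcription factor, was lower by a log2 fold change of -0.18 (adjusted p = 0.0189), a call lost without etelcalcetide replicate 2 or 3 or RANKL replicate 2 (adjusted p 0.0515 to 0.0743). The other 4 did not pass, among them Dusp12 (-0.17), Sdhc (0.05) and Tomm40l (-0.18).

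**Figure D5:**
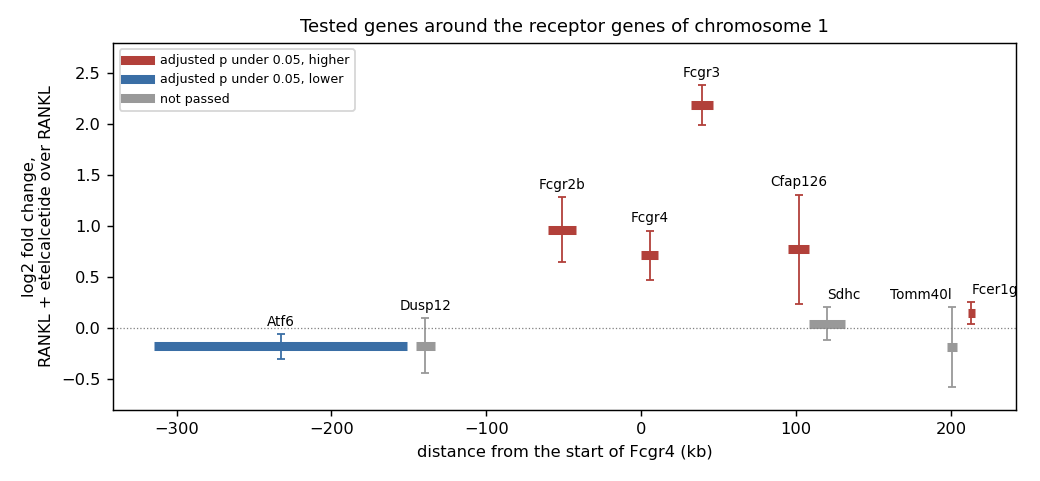
Log2 fold change, RANKL + etelcalcetide over RANKL, of tested genes near the 3 receptor genes of chromosome 1, against distance from the start of Fcgr4 in kb; thick bars span each gene, whiskers are 95% intervals, and colours give the call. Fcgr2b (0.97), Fcgr4 (0.72), Fcgr3 (2.19) and Cfap126 (0.77) stand above the other genes drawn, which lie between -0.18 and 0.15.

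Around Fcgr1 on chromosome 3, 5 of 16 protein-coding genes within 200 kb were tested. Among them 1 was higher, 2 were lower and 2 did not pass, beside 26% higher and 27% lower over all tested genes. Otud7b, a deubiquitinase, was higher by 0.35 (limma adjusted p = 0.000731). Mtmr11 was lower at 0.25 ± 0.0215 FPKM with etelcalcetide and 0.61 ± 0.0888 FPKM with RANKL alone, with 37.8% of its exon length in an overlap (SD, n = 3 each; log2 fold change -1.09). Mtmr11 passed the filter on low values only through the RANKL libraries, so it was tested only because it was high there. Bola1 was lower by a log2 fold change of -0.35 (adjusted p = 0.0363), a call lost without etelcalcetide replicate 3 or RANKL replicate 2 or 3 (adjusted p 0.0606 to 0.0876). Without etelcalcetide replicate 3 its log2 difference was -0.21. The splicing factor gene Sf3b4 (0.0033) and the histone gene Hist2h2be (-0.14) did not pass.

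Because the 4 receptors rose together, the 250 bases before each RefSeq start (GRCm38.p6) were searched on both strands for 3 short motifs known from myeloid and cytokine-driven genes. These were GAGGAA, the core that the factor PU.1 (Spi1) prefers, TTCNNNGAA, the STAT-type palindrome, and the interferon-response repeat, GAAA and GAAA with any 2 bases between. The lines below give 30 bases around each match on the strand of the gene, with the match in capitals; GAGGAA appears there as its reverse complement. The windows lie at chr3:96294007-96294036 and chr3:96294058-96294087 for Fcgr1 (minus strand), chr1:171059404-171059433 for Fcgr3 (minus strand), and chr1:171018892-171018921 and chr1:171018845-171018874 for Fcgr4 (plus strand).
Fcgr1, GAGGAA: atggcaacttccTTCCTCttttctaatctt
Fcgr1, TTCNNNGAA: aggatgtatTTCCCAGAAaagggaacagta
Fcgr3, GAGGAA: ggttaagcaagagagtccatttccTTCCTC
Fcgr4, GAGGAA: aaggctatttacTTCCTCtcttctagtcaa
Fcgr4, interferon-response repeat: tgtttctgGAAAAGGAAActggtgagatgg
GAGGAA was thus found before the starts used for all 3 activating receptors and not in the window of Fcgr2b, which held none of the 3 motifs. The motif occurs in 23.1% of the 27025 promoter windows of the same length, TTCNNNGAA in 7.18% and the interferon-response repeat in 3.04%. The shorter core GGAA was also counted and did not separate Fcgr2b from the activating receptors. It had 6 matches for Fcgr1, 4 for Fcgr2b, 3 for Fcgr3 and 5 for Fcgr4, and occurs in 93.4% of the promoter windows. A match is a run of letters and not a site in use. Fcgr3 has 2 starts in the RefSeq table, of which the first listed was used, and the other was not searched. The windows used for Fcgr3 and Fcgr2b lie within the annotated spans of these genes.

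The genes whose profiles over the 6 libraries were most like each receptor's were found by the root-mean-square difference of centred log2 values, over all tested genes. For Fcgr3 these were Rdh12, a retinol dehydrogenase (0.0944), the transcription factor Egr3 (0.107) and Olr1 (0.114). For Fcgr1 they were the lysophospholipid acyltransferase Lpcat2 (0.0576), Fam49a (0.0592) and Gm11127 (0.0622), the last with 52.8% of its exon length in an overlap. For Fcgr4 they included Klf11 (0.0651) and the sulfotransferase Chst14 (0.0653). For Fcgr2b they were the mitochondrial protein gene Nlrx1 (0.0644), Tnfrsf13b, the BAFF and APRIL receptor TACI (0.0713), and Il10ra, the interleukin-10 receptor (0.0805). All genes named here were higher with etelcalcetide by construction of the search. Rdh12, Olr1 and Tnfrsf13b passed the filter on low values only through the etelcalcetide libraries.

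Several markers of cell state differed between the groups. Beside the counts below, 26% of all tested genes were higher and 27% were lower with etelcalcetide. Of 9 tested macrophage markers of 10, 5 were higher and 0 were lower with etelcalcetide. The summed level of the macrophage markers was 3320 to 3490 FPKM with etelcalcetide and 2840 to 3010 FPKM with RANKL alone, and 1 marker alone reached 1910 FPKM. The sums are as deposited, without the trimmed-mean factors, which were 1.01 to 1.04 with etelcalcetide and 0.967 to 0.978 with RANKL alone. Of 9 tested osteoclast markers of 10, 0 were higher and 6 were lower, with sums of 204 to 219 FPKM with etelcalcetide and 373 to 510 FPKM with RANKL alone. Of 7 dendritic cell markers 2 were tested and both were higher, with sums of 14.8 to 21.5 FPKM with etelcalcetide and 0.677 to 0.977 FPKM with RANKL alone, and Cd209a had 0 reads. Ccr7 alone made up most of these sums, at 12.7 to 19.2 FPKM with etelcalcetide and 0.0318 to 0.244 FPKM with RANKL alone, while Flt3, Xcr1, Clec9a and Siglech were near 0. Ccr7 passed the filter on low values only through the etelcalcetide libraries, so it was tested only because it was high there. The part of these states in the receptor differences was not tested. Markers of other cells that carry Fc gamma receptors were near 0: B cell markers summed to at most 0.984 FPKM, with Ms4a1 and Pax5 at 0 reads, and neutrophil and mast cell markers to at most 0.369 FPKM, with 5 of 10 at 0 reads. T and NK cell markers summed to at most 0.247 FPKM. The lists of fibroblast and osteoblast, epithelial and endothelial, and erythroid markers had 0 tested genes each.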

How the data were processed

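Total RNA of 6 RAW264.7 libraries was sequenced; the authors deposited 1 table of FPKM per library. The submitters' processing notes name HISAT2 2.1.0, DESeq2 1.22.1, featureCounts 1.6.0, Trimmomatic 0.38, MultiQC, FastQC and CASAVA, without roles, and the human build GRCh38; all 55536 IDs matched mouse GENCODE M21 (GRCm38), which gave symbols, coordinates and lengths. With strandedness not given in these sources, antisense reads cannot be told apart. FPKM times merged exon length gave whole reads for 100% of values within 0.01 reads. FPKM was divided by trimmed-mean factors from those reads (30% of M and 5% of A values trimmed), a pseudocount of 0.1 was used, and limma 3.58.1 in R 4.3.3 fitted the log2 values (group only, trended prior, two-sided). Genes with 0.5 FPKM and 10 reads in 3 libraries were tested, so a gene could enter, and be counted in a list, through 1 group alone. Mtmr11 and Lair1 entered through the RANKL libraries alone, and Olr1, Marcks, Rdh12, Tnfrsf13b and Ccr7 through the etelcalcetide libraries alone. Printed FPKM are as deposited. Steps were tested on simulated data. Replicates differed beyond sampling noise, so no library was a copy. Sums, ratios and shares were compared by exact permutation. Alternatives covered scaling, filter, pseudocount, prior variance, pairing and left-out libraries. Promoter windows came from RefSeq. Tables were made with numpy 2.4.6 and pandas 2.3.3 under Python 3.11.15.

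The members, lists and tests were chosen with earlier results of these data known. Named genes were the 4 receptors, Fcer1g, Fcgrt, Tyrobp, Syk, Inpp5d and Ptpn6, per list up to 4 changed genes with the smallest and 2 with the largest adjusted p, the 3 likest profiles per receptor, and coding neighbours within 200 kb. Some genes that this rule names are not reported here.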

Additional observations from a re-analysis of the deposited data

How the results depend on the processing

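The fold changes of the 4 receptors kept their direction and call in 56 of 56 alternatives, at 1.12 to 1.31 for Fcgr1, 0.66 to 1.06 for Fcgr2b, 1.96 to 2.27 for Fcgr3 and 0.61 to 0.84 for Fcgr4 (log2; highest adjusted p 0.00468). With the replicate number as a block they were 1.23, 0.97, 2.19 and 0.72, with 5709 genes changed. Same-numbered libraries did not deviate together (correlations 0.0744, -0.0188 and -0.0299), so the data gave no sign of pairing, although the labels give each number 1 day in both groups. Leaving out 1 library gave 4688 to 6063 changed genes. The log2 ratio to Fcgr2b turned to -0.041 with Fcgr1 and Fcgr4 alone in the sum. Paired by number it was above 0 in 3 of 3 pairs, where the exact sign-flip permutation test can only reach p = 0.25. The change of Fcgr1 minus that of Fcgr2b passed at 0.46 with a pseudocount of 1 FPKM, and spanned 0.17 to 0.39 with libraries left out, passing without etelcalcetide replicate 2. The alternatives for the named genes and lists, the combined standard errors and the coding lengths were chosen after seeing the data; they changed 45 of 909 values for named genes, and no total of changed members of a list by over 1.5 times, though counts in 1 direction moved more (lower genes of the actin list, 3 with library totals against 8). Among genes that had not passed, library totals alone gave Plcg1 0.041, Arpc1b 0.059 and Milr1 0.055, and upper-quartile scaling gave Jak1 -0.0011 and Sf3b4 -0.0082. With libraries left out, Plcg1 spanned -0.12 to 0.022, Arpc1b -0.052 to 0.016, Milr1 -0.084 to 0.051, Jak1 -0.053 to 0.049, Sf3b4 -0.042 to 0.037, Pirb -0.066 to 0.32, Ptpn6 -0.020 to 0.089, Cdc42 -0.0080 to 0.061, Sdhc -0.0060 to 0.12 and Hcst -0.33 to 0.073. Fcer1g, Atf6, Bola1 and Cfap126 also lost their calls under other settings, and Tyrobp passed with upper-quartile scaling (adjusted p = 0.0439) and a pseudocount of 1 FPKM (adjusted p = 0.0498). The causes were not tested. Depth limits Fcgr2b, at 102 to 246 reads per library, and Fcgr3 in the RANKL libraries, at 95 to 97 reads, and 3 libraries a group limit the ratios.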
